A study of Homo sapiens with 6 samples.

Results

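This account concerns a set of transcription factors that set the fate of mature B cells: BCL6, BACH2, PAX5, SPIB, POU2AF1, MEF2B and EBF1, which act in germinal-centre and earlier B cells, and PRDM1, IRF4 and XBP1, which act in plasma cells. The 10 genes were chosen by name, and a gene was read from the brightest probe set that was annotated to it alone. Of them, 8 had such a probe set, 1 each, among 18417 genes measured in this way. MEF2B and EBF1 were read only by probe sets shared with other genes and are described apart.

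The study treated RL, an established line of human B-cell lymphoma with the t(14;18) translocation, in which BCL2 is joined to the immunoglobulin heavy-chain locus. The agent was LY317615 (enzastaurin), which was developed to inhibit protein kinase C beta. Total RNA was hybridised to Affymetrix Gene 1.0 ST arrays. There were 3 arrays of RL cells given LY317615 for 48 h, at a labelled dose of 2.5 mM whose unit was not checked here, and 3 arrays of untreated RL cells, whose titles also give 48 h and for which no vehicle is named. Both groups are the same single cell line, and nothing in the labels says whether the replicates were separate cultures, so the p-values cover the spread among these arrays alone, and part of it may be technical.

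In the germinal centre, B cells divide and mutate their antibody genes while BCL6, a zinc-finger repressor, holds back activation and plasma-cell genes. BACH2, a bZIP repressor, also restrains plasma-cell fate, and PAX5 and EBF1 maintain B-cell identity. Leaving this state is driven by IRF4 and PRDM1 (the BLIMP-1 protein), which silence the B-cell factors, and by XBP1, which expands the secretory machinery. BCL6 and PRDM1 repress each other, and BACH2 represses PRDM1.

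The promoters of BCL6 and PRDM1 are shown because they hold short motifs of the kind that BCL6-like and BACH proteins bind. For PRDM1, a gene that BACH2 represses, it is the downstream one of its promoters in the table. Both are RefSeq windows on GRCh38.p14, from 250 bases before to 50 after a transcription start. Such windows were found for 9 of the 10 genes. The BCL6 window lies at chr3:187745419-187745718 on the minus strand and the PRDM1 window at chr6:106098691-106098990 on the plus strand. Capitals mark TTCNNNGAA, a palindrome that STAT and BCL6-like proteins can bind, and TGACTCA, the core that AP-1 and BACH proteins can bind.
BCL6: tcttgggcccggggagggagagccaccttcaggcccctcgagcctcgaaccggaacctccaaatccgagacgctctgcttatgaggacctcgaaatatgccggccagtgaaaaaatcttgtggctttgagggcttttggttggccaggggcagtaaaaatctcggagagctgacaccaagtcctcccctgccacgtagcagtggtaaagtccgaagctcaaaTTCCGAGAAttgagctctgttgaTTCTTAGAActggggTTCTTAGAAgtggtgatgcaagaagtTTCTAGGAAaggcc
PRDM1: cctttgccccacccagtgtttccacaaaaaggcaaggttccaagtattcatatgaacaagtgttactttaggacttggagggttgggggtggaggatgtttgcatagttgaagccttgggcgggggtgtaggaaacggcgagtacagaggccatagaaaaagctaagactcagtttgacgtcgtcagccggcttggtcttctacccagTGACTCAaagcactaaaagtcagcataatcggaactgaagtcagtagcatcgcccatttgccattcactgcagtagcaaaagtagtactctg
The BCL6 window held TTCNNNGAA at 4 sites: TTCCGAGAA at positions -28 to -20 from the start, TTCTTAGAA at -5 to 4 and again at 11 to 19, and TTCTAGGAA at 37 to 45. Of 35116 RefSeq promoter windows of this length, 7.66% held at least 1 such site and 7 windows held 4 or more. No other window of these genes held it. The PRDM1 window held TGACTCA at -42 to -36, as did 4.95% of all windows on either strand, and a further BCL6 window at chr3:187736452-187736751 held it on the opposite strand at -77 to -71. The upstream PRDM1 window, at chr6:106086086-106086385, and the windows of the other genes did not hold TGACTCA. Of the other motifs searched on both strands, GACGTG, an XBP1-like core, was found in the PAX5 window, at -159 to -154 (7.81% of all windows), while CACGTG, the E-box (7.26%), and GAAANNGAAA, which interferon regulatory factors can bind (3.57%), were in none. These are matches of letters and not binding sites.

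RL cells treated with LY317615 for 48 h had less RNA of BCL6 and BACH2, the repressors that hold the germinal-centre programme, by 2.34-fold and 2.35-fold. PAX5, XBP1 and SPIB fell by less, between 1.26-fold and 1.39-fold. POU2AF1 and the plasma-cell drivers PRDM1 and IRF4 did not pass the test. In all, 5 of the 8 genes fell and 0 rose at an adjusted p under 0.05 in limma with Benjamini-Hochberg adjustment over 18417 genes. Over all genes 21.4% fell and 14.2% rose (3946 and 2622 genes, or 4526 and 1810 with the array medians set equal). The median log2 fold change was -0.34 for the 8 genes, against 0.02 over all genes. A lower share of cells expressing a gene and less RNA per cell cannot be told apart in such bulk RNA.

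The count has to be read beside the brightness of the genes, since falls were more frequent among bright genes. The genes were split into 5 equal bins of mean log2 intensity, and 37.0% of the second brightest bin and 47.6% of the brightest fell. BCL6, PAX5 and XBP1 lay in the brightest bin, where all 3 fell, and BACH2, SPIB and POU2AF1 in the next, where 2 fell. PRDM1 and IRF4 lay in the second dimmest bin, where 4.70% of genes fell and 18.1% rose. The treated and untreated arrays did not overlap, with the treated ones lower, for the same 5 genes, while over all genes this held for 27.8% in that direction and for 22.0% in the other.

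**Figure D1:**
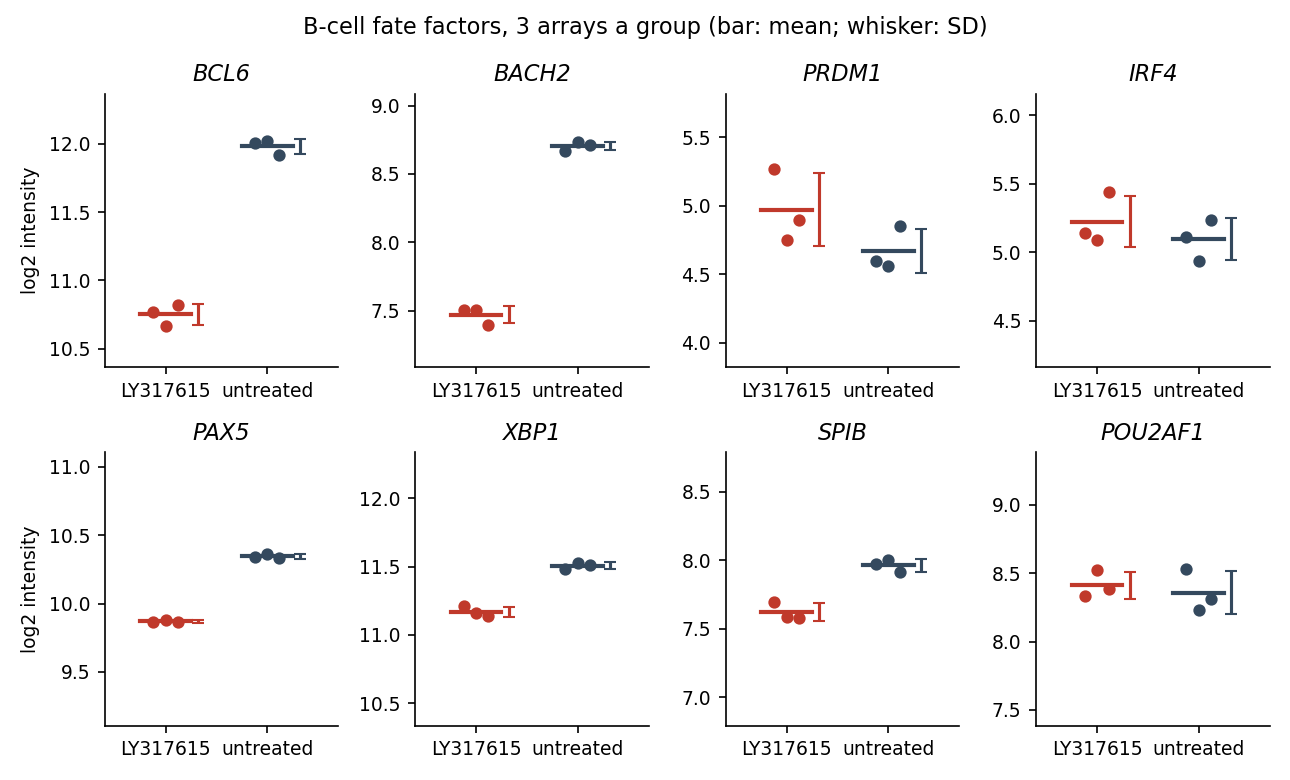
Log2 intensity (vertical axis, spanning the same 2 log2 units in every panel) of each of the 8 genes on 3 LY317615 and 3 untreated arrays; points are arrays, bars means and whiskers SDs. The groups do not overlap for BCL6, BACH2, PAX5, XBP1 and SPIB, and do for PRDM1, IRF4 and POU2AF1.

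BCL6 (probe set 8092691, chromosome 3, 187721377 to 187745468 on GRCh38) is the defining repressor of the germinal centre. It read 10.77, 10.67 and 10.82 on the log2 scale in LY317615-treated cells, against 12.01, 12.02 and 11.91 in untreated cells. All treated arrays lay more than 1 log2 unit below all untreated ones. On the deposited linear scale the intensities were 1747, 1628 and 1807 in treated cells, against 4111, 4152 and 3860 in untreated cells. The mean was 10.75 ± 0.08 in treated and 11.98 ± 0.06 in untreated cells (SD, n = 3 arrays each), a log2 fold change of -1.23 ± 0.08 (SE, limma adjusted p = 2.28e-05) with a 95% interval of -1.40 to -1.05.

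BACH2 (probe set 8128247, chromosome 6, 89926528 to 90296843) had a log2 fold change of the same size at a lower brightness. Its log2 intensity was 7.51, 7.51 and 7.40 in treated cells, against 8.67, 8.73 and 8.71 in untreated cells. The log2 fold change was -1.23 ± 0.07 (SE, limma adjusted p = 2.04e-05), with an interval of -1.40 to -1.07. Only 189 genes, 1.03% of all tested, fell by at least 1 log2 unit and passed the test, and BACH2 and BCL6 ranked 94th and 96th in order of the fall. Of these 189 genes, 48 were in the brightest bin that holds BCL6, and 58 in the next, which holds BACH2.

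The 3 genes whose pattern over the 6 arrays was most like that of BCL6 were UBALD2, ITPKB, an inositol trisphosphate kinase gene, and TWNK, the mitochondrial DNA helicase gene. Likeness was measured as the root mean square, over the 6 arrays, of the difference between the deviations of both genes from their own means, and came to 0.026, 0.039 and 0.044 log2 units. ITPKB read 8.24, 8.07 and 8.18 in treated cells, against 9.47, 9.43 and 9.38 in untreated cells. BACH2 stood at 0.085 from BCL6, and each of the other 6 genes at 0.380 to 0.786.

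PAX5 (probe set 8161211, chromosome 9, 36833269 to 37034268), which commits cells to the B lineage, fell by a smaller amount with a very narrow spread. It read 9.87, 9.88 and 9.86 in treated cells, against 10.34, 10.36 and 10.33 in untreated cells. Its log2 fold change was -0.48 ± 0.07 (SE, limma adjusted p = 0.000985), with an interval of -0.63 to -0.32 that does not meet the intervals of BCL6 and BACH2. With cyclic loess, a normalisation that takes out intensity-dependent trends between arrays, the change of PAX5 was -0.25 (limma adjusted p = 0.0163).

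SPIB (probe set 8030671, chromosome 19, 50418938 to 50431314), an ETS factor needed for germinal-centre responses, read 7.69, 7.59 and 7.58 in treated cells, against 7.97, 8.01 and 7.91 in untreated cells. No treated array reached the lowest untreated one. The log2 fold change was -0.34 ± 0.07 (SE, limma adjusted p = 0.00742), and -0.22 (limma adjusted p = 0.0324) after cyclic loess.

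POU2AF1 (probe set 7951596, chromosome 11, 111352255 to 111379275), the B-cell coactivator that works with octamer factors and is also known as OCA-B, did not pass. It read 8.33, 8.52 and 8.38 in treated cells, against 8.53, 8.23 and 8.31 in untreated cells, with the groups overlapping. The log2 fold change was 0.05 ± 0.10 (SE, limma adjusted p = 0.692), and the interval of -0.17 to 0.28 leaves room for small changes either way.

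Among the plasma-cell factors, XBP1 was bright and the other two were dim. XBP1 (probe set 8075182, chromosome 22, 28794560 to 28800569), which encodes the factor of the unfolded protein response, read 11.21, 11.16 and 11.14 in treated cells, against 11.48, 11.53 and 11.51 in untreated cells. It thus moved down, as BCL6, BACH2, PAX5 and SPIB did, by a log2 fold change of -0.34 ± 0.07 (SE, limma adjusted p = 0.00608). That call was lost after cyclic loess, where the change was -0.12 (limma adjusted p = 0.143). The arrays measure total XBP1 RNA and cannot tell its spliced form apart.

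PRDM1 (probe set 8121257, chromosome 6, 105992690 to 106109938), the repressor that ends the B-cell programme, read 5.27, 4.75 and 4.90 in treated cells, against 4.59, 4.56 and 4.85 in untreated cells. The groups overlapped, and treated replicate 1 was the highest array. The log2 fold change was 0.30 ± 0.14 (SE, limma adjusted p = 0.118) with an interval of -0.01 to 0.61, beside a median of 0.15 over all genes of its brightness bin. Without treated replicate 2 it was 0.41 and passed (limma adjusted p = 0.0472), and without treated replicate 1 it was 0.15 (limma adjusted p = 0.332).

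IRF4 (probe set 8116559, chromosome 6, 391752 to 411443), which acts before PRDM1 in plasma-cell commitment, read 5.14, 5.09 and 5.44 in treated cells, against 5.11, 4.94 and 5.24 in untreated cells. These groups overlapped as well. The log2 fold change was 0.13 ± 0.11 (SE, limma adjusted p = 0.413), with an interval of -0.13 to 0.39, and it was -0.01 after cyclic loess. The genes most like IRF4 over the arrays were LINC00574, GARIN3 and NANOS2, at 0.021, 0.024 and 0.029 log2 units, and 0 of these 3 passed the test. No detection calls were used here, so whether PRDM1 and IRF4 read above background on these arrays is not known.

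**Figure D2:**
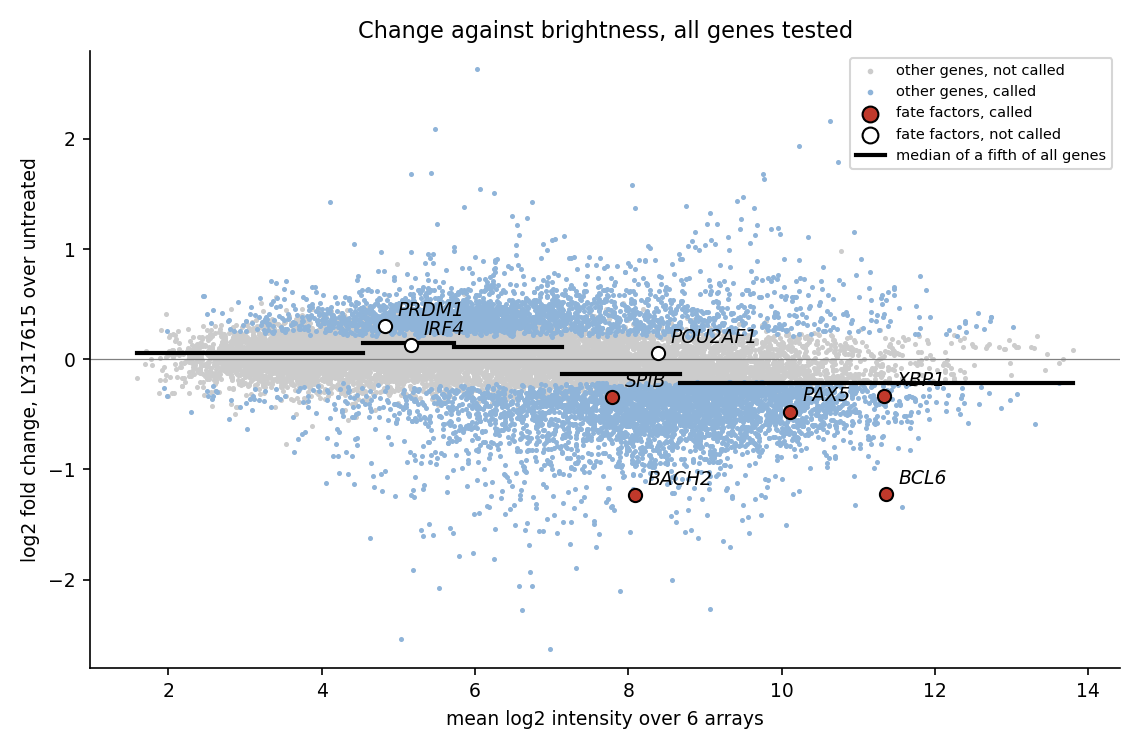
Log2 fold change of LY317615 over untreated cells (vertical axis) against mean log2 intensity over the 6 arrays (horizontal axis) for the 18417 genes; large points are the 8 named factors, filled where the adjusted p was under 0.05, and black bars the medians of 5 equal bins. BCL6 and BACH2 lie far below the medians of their bins (-0.21 and -0.14), while XBP1 and SPIB, both at -0.34, lie closer to those medians.

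EBF1 and MEF2B were read by probe sets that also carry other gene names, so their values cannot be given to 1 gene. The probe set annotated to EBF1, an early B-cell factor, and PDGFRB, a growth-factor receptor gene (8115543), read 8.86, 8.68 and 8.74 in treated cells, against 9.64, 9.63 and 9.63 in untreated cells. Its log2 fold change was -0.87 ± 0.07 (SE, limma adjusted p = 6.8e-05 over the 1754 probe sets of several genes). The probe set annotated to MEF2B, BORCS8 and their read-through BORCS8-MEF2B (8035612) read 8.34, 8.54 and 8.33 in treated cells, against 9.09, 8.96 and 8.97 in untreated cells. It changed by -0.60 ± 0.08 (SE, limma adjusted p = 0.000899). Of the 1754 such probe sets, 17.3% fell.

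Relatives and partners of the factors were followed in a list of other B-lineage transcription factors. Of 34 measured, 18 fell and 3 rose, with a median log2 fold change of -0.28. After cyclic loess 9 fell and 2 rose. IRF8, a partner of the ETS factors in germinal-centre cells, averaged 10.69 ± 0.07 in treated and 11.57 ± 0.07 in untreated cells (SD, n = 3 each), a change of -0.88 ± 0.08 (SE). MEF2D, of the same family as MEF2B, changed by -0.82 ± 0.08 and the zinc-finger gene ZBTB20 by -0.95 ± 0.09. AFF3, a transcriptional regulator, rose by 1.51 ± 0.13. Within the families, POU2F2, the OCT2 partner of POU2AF1, changed by -0.58 ± 0.08 (SE, limma adjusted p = 0.000657) and BACH1 by -0.26 ± 0.07 (limma adjusted p = 0.023). The call of BACH1 was lost after cyclic loess (-0.07) and without treated replicate 1 or 2 or untreated replicate 2 or 3, where it lay between -0.26 and -0.23. MEF2C read 0.05 ± 0.07 (limma adjusted p = 0.590). Of the dim EBF relatives, EBF3 passed narrowly at 0.32 ± 0.11 (limma adjusted p = 0.0443) and EBF4 at 0.28 ± 0.08 (limma adjusted p = 0.0283). Both calls were lost without treated replicate 3 (0.23 and 0.21), without untreated replicate 2 (0.34 and 0.28) or 3 (0.23 and 0.27), with array medians set equal (0.26 and 0.22), with a variance prior that follows intensity, and after cyclic loess (0.18 and 0.14), and in all but the last of these AFF3 was the 1 gene of the list that rose. EBF3 also lost its call without treated replicate 2 (0.34), with the replicate number as a block (0.32) and with array weights (0.29). EBF4 also lost its call without untreated replicate 1 (0.29).

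Of 14 measured corepressors and other partners that work with BCL6, 9 fell and 0 rose, with a median of -0.30. The remaining 5 did not pass. They were the corepressor genes CTBP1 at 0.26 ± 0.10 and BCOR at -0.20 ± 0.08 (SE), and 3 histone deacetylase genes. Of these, HDAC7 read 0.16 ± 0.07, HDAC9 -0.14 ± 0.08 and HDAC3 -0.06 ± 0.07. TBL1X and TBL1XR1, subunits of the NCOR and SMRT corepressor complexes, changed by -0.62 ± 0.07 and -0.42 ± 0.07 (SE). ZBTB17, the MIZ1 protein through which BCL6 reaches some promoters, changed by -0.43 ± 0.08, and HDAC5, of the same family as HDAC7, by -0.32 ± 0.07. After cyclic loess 7 fell and 2 rose with a median of -0.18, and without untreated replicate 2 the count that fell was 5.

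Genes described in the literature as repressed by BCL6 went both ways. Of 20 measured, which include PRDM1 and IRF4, 7 fell and 2 rose, with a median of -0.14. The chemokine gene CXCL10 averaged 4.60 ± 0.04 in treated and 5.79 ± 0.11 in untreated cells (SD, n = 3 each), a log2 fold change of -1.18 ± 0.08 (SE). MYC, a growth-promoting factor, changed by -1.32 ± 0.09 and the activation marker CD69 by -1.41 ± 0.13. The 2 that rose were NFKB1, a subunit of NF-kB, by 0.36 ± 0.08 and BCL2, the survival gene of the translocation, by 0.30 ± 0.08. BCL2 lost its call without treated replicate 1 (0.28) and without untreated replicate 1 or 2 (0.29 each), leaving 1 that rose. The cell-cycle and migration genes CDKN1A, S1PR1 and GPR183 did not pass, at -0.20, 0.18 and -0.08. S1PR1 and GPR183 were dim, with means of 3.57 and 3.11 in treated and 3.39 and 3.19 in untreated cells. Whether they read above background is not known.

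Of 12 measured genes described as repressed by PRDM1, 8 fell and 1 rose. Of those 8, BCL6, PAX5 and SPIB belong to the set described above, and without such genes the count was 5 of 9 lower. CD22, an inhibitory receptor of B cells, changed by -1.16 ± 0.10 (SE), XRCC6, the Ku70 protein of DNA end joining, by -0.40 ± 0.08, and ID3, an inhibitor of E proteins, by -0.38 ± 0.08. After cyclic loess 6 fell and 2 rose, and XRCC6 and ID3, at -0.20 each, did not pass. STAT6, the transducer of interleukin 4 signals, rose by 0.33 ± 0.07. The RNA of PRDM1 itself did not pass the test, as given above.

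Genes described as activated by PAX5 or EBF1 also went both ways. Of 20 measured, 8 fell and 2 rose, with a median of -0.16. These include BACH2 and POU2AF1 of the set described above, and without them 7 of 18 fell and 2 rose. FCER2, which encodes the B-cell surface protein CD23, averaged 6.11 ± 0.09 in treated and 7.67 ± 0.15 in untreated cells (SD, n = 3 each), a change of -1.55 ± 0.10 (SE). The Wnt effector gene LEF1 changed by -0.47 ± 0.07, while CD53, a tetraspanin gene, rose by 0.62 ± 0.07. The antigen-receptor chain gene CD79A changed by -0.28 ± 0.07 (limma adjusted p = 0.0168), a call lost after cyclic loess (-0.07) and without untreated replicate 3 (-0.27), and its partner CD79B read -0.01 ± 0.09 (limma adjusted p = 0.911). BLK and BLNK, which also fell, lost their calls after cyclic loess as well (-0.09 and -0.13). BLNK further lost its call with the replicate number as a block, and without treated replicate 1, 2 or 3 or untreated replicate 1 or 2. There it lay between -0.28 and -0.19. Of 11 genes described, mostly in mice, as repressed by PAX5, 3 rose and 1, XBP1, fell. The genes that rose were CD47, a signal that restrains phagocytosis, by 0.28 ± 0.07 (SE), the T-cell costimulator gene CD28 by 0.35 ± 0.10 and the macrophage growth-factor receptor gene CSF1R by 0.37 ± 0.13. CSF1R and CD28 were dim, and the CSF1R groups overlapped. Of the list, 0 genes rose without untreated replicate 3, where CD47, CD28 and CSF1R read 0.26, 0.29 and 0.30, and 1 rose without treated replicate 3, without untreated replicate 2 or with array medians set equal.

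Targets of XBP1 and parts of the secretory pathway were lower in part. Of 26 measured genes, 11 fell and 1 rose, with a median of -0.14. The balance turned round after cyclic loess, with 5 lower, 6 higher and a median of 0.05, and 7 fell without untreated replicate 1 or without untreated replicate 2. HERPUD1, a component of endoplasmic-reticulum degradation, averaged 10.71 ± 0.10 in treated and 11.70 ± 0.04 in untreated cells (SD, n = 3 each), a log2 fold change of -0.99 ± 0.08 (SE). The cochaperone gene DNAJB9 changed by -0.75 ± 0.08, HSPA5, the chaperone BiP, by -0.57 ± 0.08 and the chaperone gene HYOU1 by -0.43 ± 0.07. The transducers of this response were ATF6 at -0.34 ± 0.07 (limma adjusted p = 0.00632, and 0.185 after cyclic loess) and ERN1, the enzyme that splices XBP1 RNA, at 0.14 ± 0.10 (limma adjusted p = 0.288). SPCS1, a signal peptidase subunit gene, rose by 0.38 ± 0.08.

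Genes of the plasma-cell state were mostly lower or not called. Of 18 measured, 8 fell and 1 rose. These include PRDM1, IRF4 and XBP1 of the set described above, and without them 7 of 15 fell and 1 rose. SLAMF7 changed by -2.06 ± 0.16 (SE), TNFRSF17, which encodes the survival receptor BCMA, by -1.49 ± 0.15, FKBP11 by -0.78 ± 0.09 and CD27 by -0.48 ± 0.07. The gene that rose was FCRL5, an Fc receptor-like gene, by 1.04 ± 0.19. FCRL5 was dim and its treated arrays spread widely. It read 4.44, 5.35 and 5.03 in treated cells, against 3.94, 3.82 and 3.93 in untreated cells. Syndecan-1, encoded by SDC1, read 0.23 ± 0.11 (limma adjusted p = 0.132), the joining chain gene JCHAIN 0.06 ± 0.07 (limma adjusted p = 0.532) and MZB1 -0.07 ± 0.09 (limma adjusted p = 0.559).

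Of 23 measured genes that mark the centroblast and centrocyte states within the germinal centre, 10 fell and 3 rose, with a median of -0.18. After cyclic loess 6 fell and 5 rose. ELL3, a transcription elongation factor gene, changed by -1.18 ± 0.10 (SE), CXCR4, the chemokine receptor of the dark zone, by -1.06 ± 0.09, and RGS13, a brake on chemokine signals, by -1.04 ± 0.07. MME, the germinal-centre surface marker CD10, went the other way and rose by 2.16 ± 0.09, and CD40 and NFKBIA rose by 0.51 ± 0.12 and 0.44 ± 0.08. After cyclic loess the median was 0.23 for genes described as repressed by PAX5 and lay between -0.21 and 0.05 for the other 8 lists. Falls were more frequent among bright genes, as given above, and the part of brightness in these list counts was not tested.

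**Figure D3:**
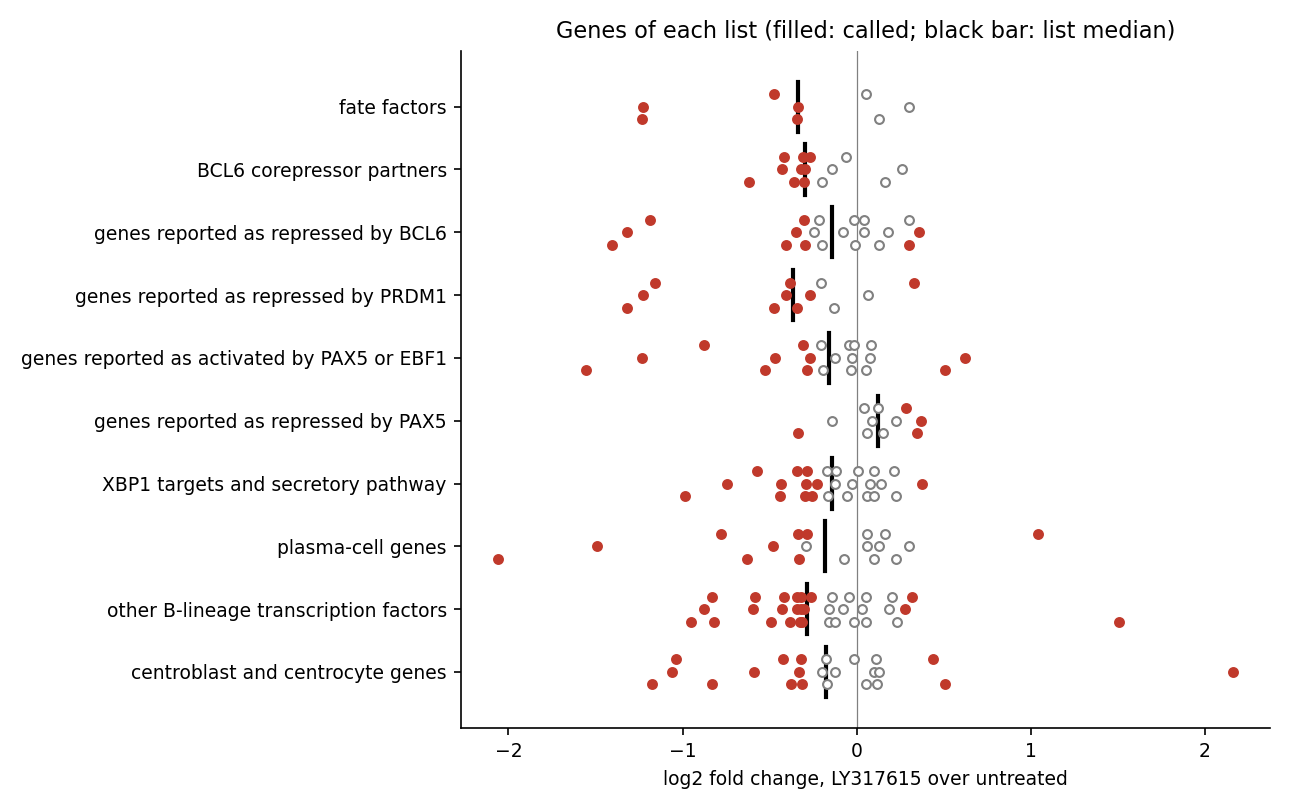
Log2 fold change of LY317615 over untreated cells (horizontal axis) for every measured gene of the factor set and of the 9 lists (rows); filled points passed an adjusted p of 0.05 and black bars are list medians. Medians run from -0.36 for genes described as repressed by PRDM1 to 0.13 for genes described as repressed by PAX5.

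The labelled cell type was checked against its markers. The 5 measured B-cell markers, CD79A, CD79B, MS4A1, CD22 and PAX5, had mean log2 intensities of 9.81 to 11.36, and the 7 germinal-centre markers 8.35 to 11.37. Of the B-cell markers 4 fell, and their summed intensity was 6651 to 7325 in treated and 9579 to 10070 in untreated cells. The 5 plasma-cell markers had 4.82 to 12.13, with JCHAIN brightest and above every B-cell marker. Of these, 1 fell, and the sums were 4860 to 5219 in treated and 4845 to 5082 in untreated cells. Markers of T cells had 4.04 to 7.36, of NK cells 2.88 to 6.41 and of myeloid cells 3.59 to 5.47. Of 8 T-cell markers 3 rose, and their summed intensity was 436 to 486 in treated and 334 to 358 in untreated cells. Of 7 myeloid markers 4 rose, with sums of 228 to 283 in treated and 181 to 196 in untreated cells, and of 5 NK-cell markers 0 rose or fell, with sums of 182 to 213 in treated and 180 to 187 in untreated cells. Of the 4 myeloid markers, CSF1R and MPO passed narrowly (limma adjusted p = 0.0482 and 0.0418). In the 5 brightness bins, from dimmest to brightest, 6.73%, 18.1%, 24.4%, 12.5% and 9.47% of all genes rose. PRDM1 and IRF4 lay in the same range of low intensity as the T-cell, NK-cell and myeloid markers. All arrays are labelled as the single B-cell line RL, and why these dim genes read as they did was not tested.

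The median log2 intensity over the 18417 genes was 6.38 to 6.42 on treated and 6.32 to 6.36 on untreated arrays. The number of arrays, 3 in each group, limits the precision. Treated replicate 3 lay away from the remaining treated arrays on the second principal component and had the lowest array weight, 0.376 against 1.04 to 1.51 for the other 5 arrays. Without it BCL6 changed by -1.26, BACH2 by -1.20, PAX5 by -0.47, XBP1 by -0.32 and SPIB by -0.32, and the same 5 genes passed.

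**Figure D4:**
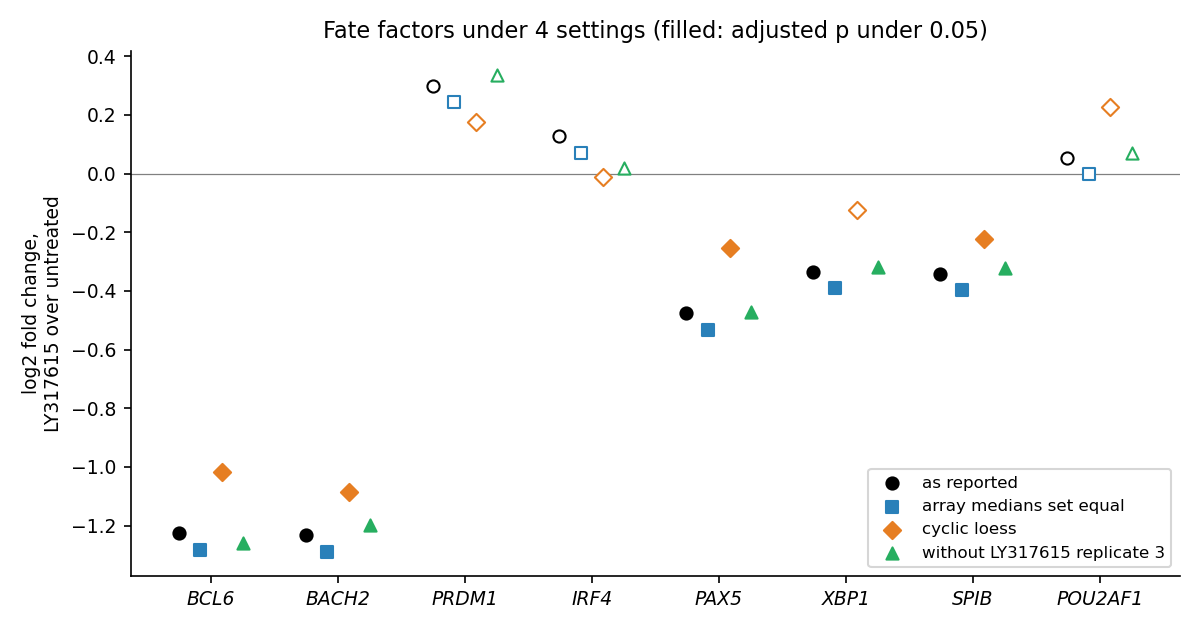
Log2 fold change of LY317615 over untreated cells (vertical axis) for the 8 genes (horizontal axis) as reported, with array medians set equal, after cyclic loess and without treated replicate 3; filled symbols have an adjusted p under 0.05. BCL6 and BACH2 stay at or below -1.02 in all 4, and XBP1 loses its call after cyclic loess.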

How the data were processed

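The authors deposited a table of normalised probe-set intensities, which are not on a log scale. The submitters' processing notes name RMA, GCOS 1.4 and Affymetrix Expression Console, without their order. Log2 was taken with no added constant, all values being above 0. Of 33297 probe sets, 19460 had 1 gene symbol, 1754 several and 12083 none. Where a gene had several single-symbol probe sets (769 genes), the brightest was used.

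Arrays were grouped by their labels. Genes were tested with limma 3.58.1 in R 4.3.3 (linear model, moderated statistics, two-sided, Benjamini-Hochberg over all genes, threshold 0.05). Errors of fold changes are SEs from that fit. The code was tested on simulated data. Positions and promoter windows come from RefSeq on GRCh38.p14, and no build is given in the sources used here for the arrays.

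The members and lists were chosen with earlier results of these data known. Lists were drawn up from general knowledge and are described by counts, with no set test. Genes named from a list were up to 4 that passed, by smallest adjusted p. BCL2, CDKN1A, S1PR1, GPR183, STAT6, CD79A, CD79B, POU2F2, BACH1, MEF2C, EBF3, EBF4, ATF6, ERN1, SPCS1, FCRL5, SDC1, JCHAIN, MZB1, CD40 and NFKBIA were named after their values were seen. So were CTBP1, BCOR, HDAC3, HDAC7, HDAC9, BLK and BLNK.

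The replicate numbers were checked for pairing: same-numbered arrays had deviations that correlated, across genes, at -0.017, 0.093 and 0.066. Arrays of unlike number correlated at -0.107 to 0.044. All of these were small, so the numbers were not taken to pair the arrays.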

Additional observations from a re-analysis of the deposited data

How the results depend on the processing

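The 16 alternatives were listed with earlier results of these data known. All 5 genes of the set that fell kept their direction and an adjusted p under 0.05 under each alternative fit, except XBP1 after cyclic loess (-0.12, adjusted p = 0.143), so that 4 genes were called lower there. With a log2 fold change of at least 1 required, 2 genes remained, BCL6 and BACH2. BCL6 ran from -1.28 to -1.02, BACH2 from -1.29 to -1.08, PAX5 from -0.53 to -0.25, SPIB from -0.40 to -0.22 and XBP1 from -0.39 to -0.12. PRDM1 passed only without treated replicate 2, and was not tested without the dimmest 30% of genes. IRF4 ran from -0.01 to 0.20 and POU2AF1 from -0.01 to 0.23, with neither called under any alternative.

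Leaving out each array in turn gave 5 genes of the set lower and 0 to 1 higher, and over all genes 3043 to 3677 lower and 1566 to 2538 higher. The fewest higher genes, 1566 and 1715, came without untreated replicates 2 and 3, against 2622 with all arrays. Over all genes 2619 fell and 967 rose at an adjusted p of 0.01, and 189 fell and 55 rose with a log2 fold change of at least 1. The lower share also moved with scaling: 4526 genes fell and 1810 rose with the array medians set equal, and 2979 fell and 2588 rose after cyclic loess. With the replicate number as a block 3836 fell and 2712 rose, and it changed no call of the set. Calls in the lists did change with the block. The count that fell went from 9 to 7 for BCL6 corepressors and partners and from 11 to 9 for XBP1 targets. For genes described as repressed by BCL6 it went from 7 to 8. LY317615 replicate 1 correlated more with untreated replicate 2 (0.037) than with its own number (-0.017). Same-numbered replicates 2 and 3 correlated at 0.093 and 0.066, above every pair of unlike number, of which the highest was 0.044.

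List medians moved by more than their spread between arrays as follows. With array medians set equal they were -0.36 for BCL6 corepressors and partners, -0.20 for genes described as repressed by BCL6, -0.42 for those repressed by PRDM1, -0.20 for XBP1 targets, -0.24 for plasma-cell genes and -0.23 for centroblast and centrocyte genes. After cyclic loess they were -0.18, -0.082, -0.21, 0.046, -0.079 and -0.10 in that order of lists, and -0.084 for genes activated by PAX5 or EBF1, 0.23 for those repressed by PAX5 and -0.11 for other B-lineage factors. Without the dimmest 30% of genes they were -0.23 for genes repressed by BCL6 and -0.29 for plasma-cell genes. Leaving out arrays gave -0.32 to -0.25 for BCL6 corepressors and partners, -0.19 to -0.086 for genes repressed by BCL6, -0.39 to -0.32 for those repressed by PRDM1 and -0.23 to -0.11 for plasma-cell genes. The causes of these shifts were not tested. Signal over background is not known without detection calls. Among the 8 genes of the set this limits the dim PRDM1 and IRF4 most, and it also limits dimmer genes of the lists, such as S1PR1, GPR183 and FCRL5.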
